A study of Spinacia oleracea with 12 samples.

Results

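Root was set against leaf in spinach plants grown with limiting nitrogen (N), to show which genes separate these tissues and by how much. The comparison took the libraries whose names mark low N root (LNR, 3 libraries) and low N leaf (LNL, 3 libraries), which made 6 of the 12 libraries of the study. The low N root group was root of 6-week-old plants of the spinach variety ‘Banjo’ fed 50 ppm N, and the low N leaf group was leaf of 6-week-old ‘Banjo’ plants on the same feed. The remaining 6 libraries were root (HNR) and leaf (HNL) of plants fed 200 ppm N, and they entered only a check of whether the tissue difference depended on the N level. All plants grew in a growth chamber with N given as calcium nitrate and with calcium balanced by calcium chloride. Each group came from 3 independent plants of 1 variety at 1 age, so the values speak of that variety, age and medium.

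Roots take up nitrate and ammonium from the medium through families of membrane transporters, seal their inner cell layers with lignin and suberin, and pass N to the shoot through the xylem. Leaves hold the chloroplasts, fix carbon by photosynthesis, exchange gases through stomata and reduce much of the nitrate that arrives. Plants short of N raise high-affinity uptake systems in the root and remobilise N from older leaves.

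Expression was measured by RNA-Seq with paired reads and was deposited as FPKM, fragments counted on a gene divided by its length and by the depth of the library, for 25495 genes. Low N root libraries held 16275501 to 18608172 fragments and low N leaf libraries 16408530 to 17977942, so depth was close between the tissues. The 100 most abundant genes took 16.2 to 17.6% of fragments in low N root and 26.8 to 32.5% in low N leaf. Each library was therefore scaled by the median of its ratios to a common reference, and values are given as scaled FPKM, meaning FPKM divided by a size factor of 1.21 to 1.25 in root and 0.730 to 0.900 in leaf. Libraries of 1 tissue correlated at r = 0.946 to 0.964 (root) and 0.926 to 0.970 (leaf) across genes, and root with leaf at 0.419 to 0.480.

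The names and the sample records disagreed, and the groups rest on the names. The records give leaf as the tissue of all 12 samples, describe the LNR libraries as N replete root, and exchange the N treatments of the HNR and LNL libraries. The data bear directly on the tissue. The 17 genes of photosynthesis and chlorophyll synthesis summed to 161, 186 and 198 scaled FPKM over the 3 low N root libraries, from lowest to highest, against 32713, 36873 and 46102 in low N leaf. A list of 16 root markers summed to 431, 517 and 739 in low N root, against 61.9, 70.7 and 141 in low N leaf, and 8 of the 16 had no fragment in any leaf library. Every library thus carried the expression of the tissue in its name. The N level was not checked from expression.

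Differences are root minus leaf on log2(scaled FPKM + 1), a scale that understates the change of genes with low values. They were tested with limma over the 18408 genes that averaged at least 1 FPKM over the 6 libraries. A gene is called where the Benjamini-Hochberg adjusted p is below 0.05. Triplets of values follow the library numbers 1, 2 and 3 of each tissue. A count of 0 allows up to 3 fragments, which for a gene of 1 kb is 0.133 to 0.248 scaled FPKM, and folds against a tissue without fragments are lower bounds against that floor in each library. These floors cover counting error only. In whole tissue, fewer cells of a type and less RNA per cell cannot be told apart.

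Low N root and low N leaf differed in a large share of the genes tested. Of 18408 genes, 8412 (45.7%) were called, 4441 higher in root (24.1%) and 3971 lower in root (21.6%). This balance depended on the scaling. Among called genes 52.8% were higher in root, whereas with FPKM as deposited 11293 genes were called, 75.1% of them (8486) higher in root and 2807 lower, and the median difference over all tested genes was 0.55 instead of 0.05 on the log2 scale. Changes are given here relative to the scaled values. The libraries of the tissues did not overlap in 10376 genes (56.4%), and 8364 of the called genes were among them. The median difference was 1.64 for genes called higher in root and -1.83 for genes called lower, with a median standard error (SE) of 0.23.

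The tails were uneven. A difference of at least 2 on the log2 scale was seen in 1776 genes called higher in root and 1800 called lower, a difference of at least 5 in 284 and 385, and a difference of at least 8 in 27 and 97. The plot of all genes shows this as a longer lower arm, which held photosynthesis genes among many others.

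**Figure D1:**
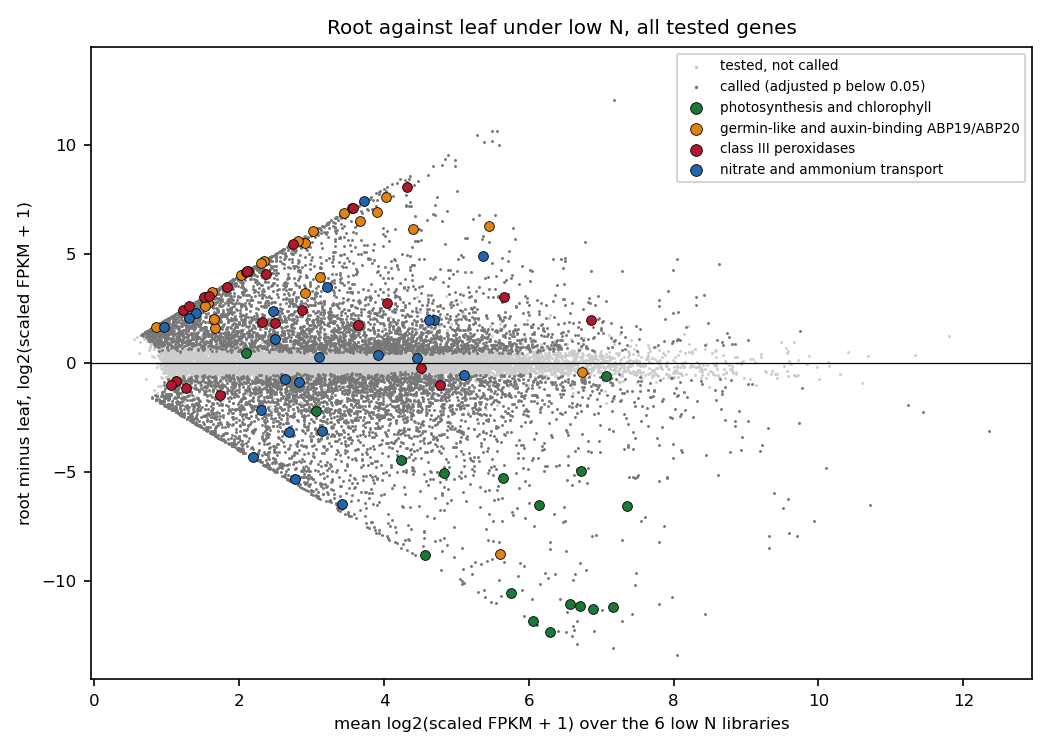
Root minus leaf difference of every tested gene under low N, on log2(scaled FPKM + 1), against its mean level over the 6 low N libraries. Points are genes, dark grey for called and light grey for not called, with members of 4 gene lists in colour. The straight edges are genes near 0 in 1 tissue. Photosynthesis genes lie in the lower arm among many other genes, down to a difference of -12.36.

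Gene names come from the best protein matches given with the study's tables of N-responsive genes, which hold 2198 of the genes, 1754 with a name. These genes were chosen by the study for their response to N within root or within leaf in these same libraries, so expression in a tissue helped a gene onto the lists. Of the 2017 that were tested, 1299 (64.4%) were called, 784 higher in root (38.9%) and 515 lower in root (25.5%), with a median difference of 0.34 against 0.05 over all tested genes. Counts for the gene lists below are to be read against these shares, and none is independent evidence of its direction. Several lists hold families of near-identical genes (light-harvesting proteins, peroxidase 57, auxin-binding proteins ABP19 and ABP20, chalcone synthases), among which the authors' counting could split reads unevenly.

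The largest differences of all were in genes without a name in these tables. Spo05786 had 10293, 9332 and 8635 scaled FPKM in low N root, against 0, 1.71 and 3.01 in low N leaf, a difference of 12.05 ± 0.47 (± SE, n = 3 libraries a tissue, limma, adjusted p = 1.20e-06). Spo26961 had 2738, 1432 and 1751 scaled FPKM in low N root, against 0.136, 0 and 0.411 in low N leaf (10.67 ± 0.27, adjusted p = 2.37e-07). Both were among the abundant transcripts of root and close to absent from leaf.

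In the other direction, Spo06839 had 1.64, 1.94 and 1.17 scaled FPKM in low N root, against 23212, 49196 and 17897 in low N leaf, a difference of -13.38 ± 0.38 (adjusted p = 4.02e-07). Spo26398 had 0.320, 0.619 and 0.744 scaled FPKM in low N root, against 10036, 16842 and 13876 in low N leaf (-13.07 ± 0.24, adjusted p = 8.55e-08). Neither came near its leaf level in any root library.

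Photosynthesis genes set the lower end among named genes. Of 17 tested, 15 were lower in root and 0 higher, with a median difference of -6.56. A light-harvesting chlorophyll a-b binding protein (Spo03025), which holds antenna pigments in the thylakoid membrane, had 0.0571, 0.111 and 0.0613 scaled FPKM in low N root, against 4776, 7320.1 and 5181 in low N leaf. That was a difference of -12.36 ± 0.20 (adjusted p = 7.22e-08), the largest of any named gene. Chlorophyll a-b binding protein 3 (Spo10927) had 0.173, 0.168 and 0 scaled FPKM in low N root, against 3144, 4719 and 4384 in low N leaf (-11.82 ± 0.20). For both genes root held at most 3 fragments in any library, while they were among the strongly expressed genes of every leaf library.

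Proteins of both photosystems followed. Oxygen-evolving enhancer protein 2 (Spo17046), of the water-splitting side of photosystem II, had 1.31, 1.55 and 1.23 scaled FPKM in low N root, against 5243, 6972 and 5826 in low N leaf (-11.31 ± 0.18), and its partner oxygen-evolving enhancer protein 3 (Spo19731) had 1.44, 0.890 and 0.916 scaled FPKM in low N root, against 4029.7, 5026 and 4179 in low N leaf (-11.05 ± 0.19). Photosystem I subunit XI (Spo25087) had 3.10, 1.02 and 2.19 scaled FPKM in low N root, against 6441, 8049 and 6339 in low N leaf (-11.18 ± 0.28), and subunit V (Spo03847) had 0.728, 1.32 and 1.66 scaled FPKM in low N root, against 4041, 6659 and 4524 in low N leaf (-11.14 ± 0.26). All of these were detected in root, at 0.728 to 3.10 scaled FPKM, and in no case did a root library approach a leaf library. The antenna protein CP24 (Spo25138) had 0.578, 0.267 and 0.325 scaled FPKM in low N root, against 1592, 2596 and 2217 in low N leaf (-10.56 ± 0.22). The photosystem II 22 kDa protein (Spo23712), which is needed for the dissipation of excess light energy as heat, had 0.138, 0.0668 and 0.185 scaled FPKM in low N root, against 462, 552 and 489 in low N leaf (-8.79 ± 0.15). Adjusted p values of these 6 genes lay between 7.22e-08 and 2.37e-07.

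The remaining called genes of the list act in chlorophyll synthesis, light harvesting, carbon fixation and photorespiration. Protochlorophyllide reductase (Spo19511), the light-requiring step of chlorophyll synthesis, had 7.99, 5.22 and 6.11 scaled FPKM in low N root, against 544, 761 and 760.1 in low N leaf (-6.53 ± 0.22), and the ChlD subunit of magnesium chelatase (Spo11990), which inserts magnesium into the chlorophyll precursor, had 3.48, 2.76 and 2.92 scaled FPKM in low N root, against 93.9, 84.4 and 81.8 in low N leaf (-4.44 ± 0.15). The triose phosphate/phosphate translocator (Spo18002), which exports fixed carbon from the chloroplast, had 13.1, 17.8 and 16.9 scaled FPKM in low N root, against 1196, 1999.9 and 1674 in low N leaf, 102-fold lower in root by the means. Serine--glyoxylate aminotransferase (Spo11992), a photorespiratory enzyme of the peroxisome, had 23.8, 8.64 and 27.7 scaled FPKM in low N root, against 482, 623 and 648 in low N leaf, 29.1-fold lower in root. The light-harvesting complex-like protein OHP1 (Spo22082, -5.26 ± 0.30) and Rubisco accumulation factor 1.2 (Spo22452, -5.04 ± 0.25) lay between these. Chloroplastic fructose-1,6-bisphosphatase (Spo22032), of the Calvin cycle, differed least among the called genes of the list, with 2.64, 3.52 and 2.67 scaled FPKM in low N root, against 15.7, 19.5 and 15.6 in low N leaf (-2.19 ± 0.18, adjusted p = 4.60e-05).

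Carbonic anhydrase and a thylakoid lumenal protein did not pass the test. Chloroplastic carbonic anhydrase (Spo10751), which interconverts carbon dioxide and bicarbonate, had 108, 145 and 81.3 scaled FPKM in low N root, against 156, 201 and 139 in low N leaf (-0.59 ± 0.26, adjusted p = 0.109), so root kept a level of the same order as leaf and the tissues overlapped. Without root library 2 its adjusted p was 0.0437. The lumenal protein TL20.3 (Spo04636) had 4.78, 3.14 and 4.18 scaled FPKM in low N root, against 4.08, 1.65 and 2.68 in low N leaf (0.44 ± 0.28, adjusted p = 0.241), and with FPKM as deposited it was called higher in root (0.87, adjusted p = 0.0377). A wider list of other plastid proteins was split. Of 109 tested, 20 were higher in root and 60 lower, with a median of -0.99, and with FPKM as deposited 30 and 51. At its ends stood probable phytol kinase 3 (Spo14939), with 201, 58.3 and 114 scaled FPKM in low N root, against 3.72, 1.02 and 3.76 in low N leaf (4.97 ± 0.51), and phospholipase A1-Igamma3 (Spo15694), with 0.268, 0 and 0.135 scaled FPKM in low N root, against 126, 201 and 222 in low N leaf (-7.31 ± 0.24).

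Stomata are a leaf structure. The list for stomata and guard cells was drawn by name. It held genes, or members of gene families, known from guard cells or stomatal patterning in other plants. Several members act elsewhere, so not each is a guard cell gene. Of 9 tested, 6 were lower in root and 3 higher. The transcription factor FAMA (Spo03472), which in Arabidopsis completes guard cell formation, had 0.0220, 0 and 0 scaled FPKM in low N root, against 6.28, 6.41 and 10.8 in low N leaf (-3.10 ± 0.24, adjusted p = 3.13e-05). The secreted peptide EPIDERMAL PATTERNING FACTOR 1 (Spo00060), which spaces stomata in Arabidopsis, had 0, 0 and 0 scaled FPKM in low N root, against 6.85, 6.42 and 7.01 in low N leaf, at least 38.01-fold lower in root. ABC transporter G family member 22 (Spo16795) had 0.0515, 0.0623 and 0.0691 scaled FPKM in low N root, against 30.1, 49.6 and 28.7 in low N leaf (-5.09 ± 0.24). These 3 genes were at or near 0 in every root library. Lower in root too were both genes named for the receptor kinase ERECTA, Spo07213 (-2.42 ± 0.33) and Spo19434 (-2.64 ± 0.34), and aluminum-activated malate transporter 12 (Spo02965, -2.12 ± 0.25).

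The other 3 genes of the list were higher in root. ASPARTIC PROTEASE IN GUARD CELL 2 (Spo21763) had 297, 306 and 383 scaled FPKM in low N root, against 0.906, 2.14 and 2.05 in low N leaf (6.96 ± 0.24, adjusted p = 6.73e-07). The S-type anion channel SLAH1 (Spo21782) had 76.8, 47.8 and 32.7 scaled FPKM in low N root, against 0.163, 0 and 0.0468 in low N leaf (5.56 ± 0.30), and SLAH3 (Spo15968), a channel that passes nitrate in Arabidopsis, had 94.7, 65.6 and 58.7 scaled FPKM in low N root, against 3.17, 1.40 and 0.707 in low N leaf (4.81 ± 0.35). For these genes no leaf library reached the level of any root library. EPIDERMAL PATTERNING FACTOR 2 (Spo20314), with 0.0830, 0 and 0 scaled FPKM in low N root, against 0.519, 0 and 0.224 in low N leaf, was below the filter and not tested in the fit.

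**Figure D2:**
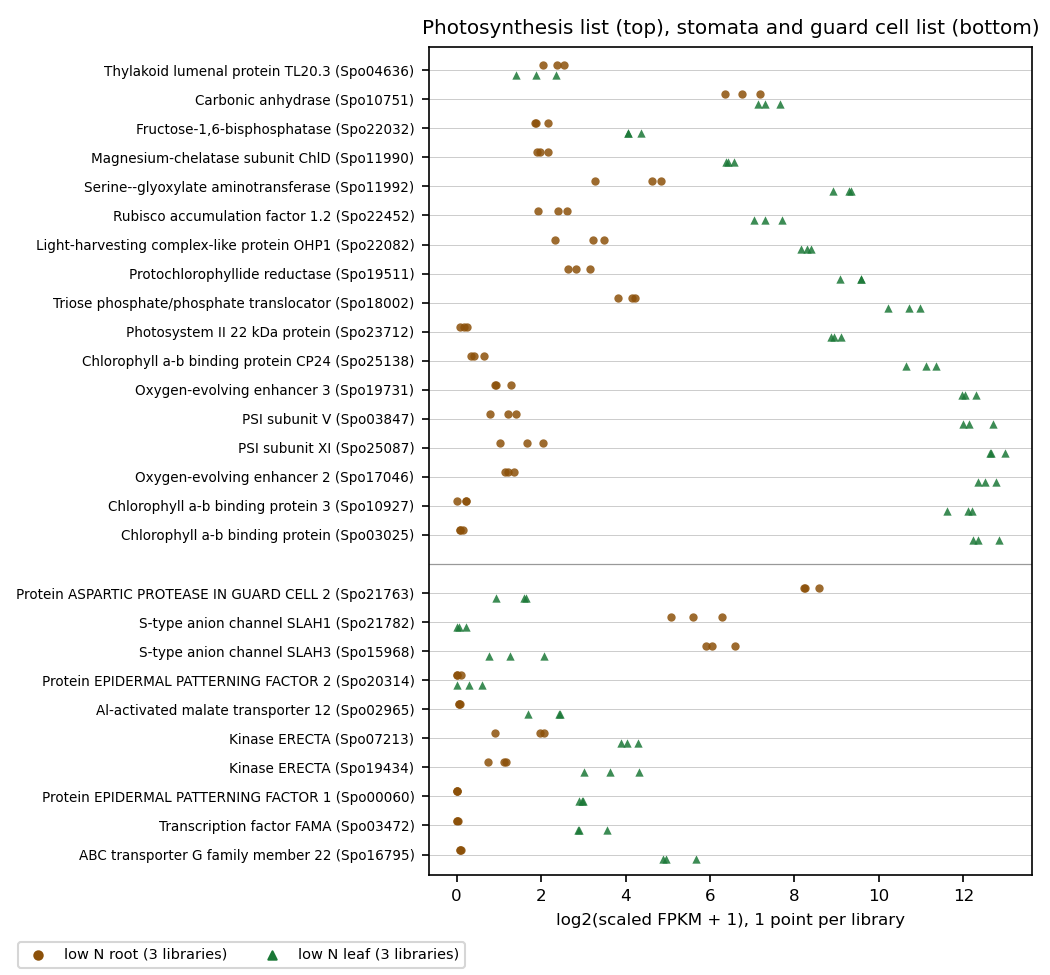
Level of the 17 photosynthesis genes (upper block) and the 10 genes of the stomata and guard cell list (lower block) in each library, as log2(scaled FPKM + 1), with brown circles for the 3 low N root libraries and green triangles for the 3 low N leaf libraries. Root lies left of leaf for 15 photosynthesis genes without overlap, while SLAH1, SLAH3 and ASPARTIC PROTEASE IN GUARD CELL 2 lie right of leaf.

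Root markers showed the opposite pattern with 2 exceptions. Of 14 tested, 12 were higher in root and 2 lower, with a median of 2.86. Peroxidase 57, a class III peroxidase of the cell wall, was represented by 5 genes, and the most abundant of them (Spo13100) had 35.4, 60.7 and 38.1 scaled FPKM in low N root, against 0, 0 and 0 in low N leaf, at least 205-fold higher in root. A gene named for MIZU-KUSSEI 1 (Spo08287), needed in Arabidopsis for root growth toward moisture, had 8.92, 19.3 and 15.5 scaled FPKM in low N root, against 0, 0 and 0 in low N leaf, at least 53.4-fold higher in root, and the further 2 genes of that name (Spo20727, Spo08045) differed by 2.80 ± 0.30 and 2.07 ± 0.27. The phosphate transporter 1-1 gene Spo19049 had 5.42, 6.81 and 7.67 scaled FPKM in low N root, against 0, 0 and 0 in low N leaf, at least 49.1-fold higher in root. Leaf libraries were at 0 for Spo13100, Spo08287 and Spo19049 throughout.

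Peroxidase 27 (Spo09292) had 140.5, 331 and 257 scaled FPKM in low N root, against 43.1, 119 and 36.6 in low N leaf, 3.67-fold higher in root with leaf library 2 near root library 1 (adjusted p = 0.0141). It was not called without root library 2 or root library 3 (adjusted p = 0.0558 and 0.0525). LATERAL ROOT PRIMORDIUM 1 (Spo11922) had 9.56, 10.3 and 7.62 scaled FPKM in low N root, against 7.26, 4.45 and 3.48 in low N leaf (0.78 ± 0.26, adjusted p = 0.0419), and its adjusted p was 0.0638 to 0.122 when leaf library 2, leaf library 3 or any 1 root library was left out and 0.0574 without a filter on low values. The 2 markers lower in root were the silicon efflux transporter LSI3 (Spo04406), with 2.26, 2.04 and 1.65 scaled FPKM in low N root, against 2.98, 7.69 and 9.64 in low N leaf (-1.27 ± 0.36, adjusted p = 0.0241), and ammonium transporter 1 member 3 (Spo21031), with 1.60, 1.15 and 1.28 scaled FPKM in low N root, against 6.79, 6.98 and 16.7 in low N leaf (-2.15 ± 0.33, adjusted p = 0.00136). The call of LSI3 was lost (adjusted p = 0.0534 to 0.0843) without leaf library 2, leaf library 3 or any 1 root library, and with FPKM as deposited (0.0781).

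Genes of nitrate and ammonium transport were called in both directions. Of 22 tested genes, 9 were higher in root (40.9%), 6 were lower (27.3%) and 7 were not called, with a median of 0.32. These shares are near those of all tested genes of the N response tables, and with FPKM as deposited 13 were higher and 6 lower, with a median of 0.84. Transcripts of 4 genes from this comparison were also assayed by the study with quantitative PCR. That assay followed the response to N within root and within leaf, not root against leaf. Its primers are given to show which genes were assayed. They were not aligned to any transcript here, and they are shown in lower case from 5′ to 3′ for high-affinity nitrate transporter 2.1 and the phosphoenolpyruvate carboxykinase gene, higher in root, and for the NRT1/PTR family member NPF6.2 and the sodium transporter HKT1, lower in root.
Spo09968, nitrate transporter 2.1, forward: aaagaagggtgaggttgctaaa
Spo09968, nitrate transporter 2.1, reverse: gtagccatagaggagcacaaag
Spo20411, phosphoenolpyruvate carboxykinase, forward: cctgtgagcaagctgaatct
Spo20411, phosphoenolpyruvate carboxykinase, reverse: gtcgctgttggctcctttat
Spo05548, NPF6.2, forward: gtagcaatcgcagtaggaagag
Spo05548, NPF6.2, reverse: cgagttgtccggtatagatgaag
Spo18318, sodium transporter HKT1, forward: ctctcgctctctttgtggttatg
Spo18318, sodium transporter HKT1, reverse: cgcttctcttgttctggctatt

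High-affinity nitrate transporter 2.1 (Spo09968), whose Arabidopsis counterpart carries much of the uptake at low external nitrate, had 170.4, 225 and 134 scaled FPKM in low N root, against 0, 0 and 0.0395 in low N leaf (7.42 ± 0.21, adjusted p = 4.02e-07). Every root library was far above leaf, in which a single library held any fragment. High-affinity nitrate transporter 2.5 was carried by Spo03990, with 6.53, 5.53 and 3.03 scaled FPKM in low N root, against 0.308, 0.0591 and 0.265 in low N leaf (2.27 ± 0.27), and by Spo03988, with 1.01, 1.09 and 0.0328 scaled FPKM in low N root, against 0, 0 and 0 in low N leaf. The second was below the filter for testing, and for 3 against 3 libraries the 2-sided exact permutation test gave p = 0.10, the smallest it allows.

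Of the NRT1/PTR family (NPF), which transports nitrate, peptides and hormones, some members belonged to each tissue. NPF6.3 (Spo26413), the dual-affinity transporter and nitrate sensor of Arabidopsis, had 22.8, 93.3 and 12.6 scaled FPKM in low N root, against 1.10, 2.57 and 1.77 in low N leaf (3.51 ± 0.65, adjusted p = 0.00342), with root library 2 well above the other root libraries. NPF5.10 (Spo17357) and NPF7.3 (Spo24247) were 8.30-fold and 2.52-fold higher in root by the means. Another gene for NPF7.3 (Spo23405) had 28.9, 78.01 and 57.5 scaled FPKM in low N root, against 3.31, 11.7 and 38.9 in low N leaf and was not called (1.99 ± 0.77, adjusted p = 0.0704). Without leaf library 3, which overlapped root, its adjusted p was 0.00887, and with FPKM as deposited it was 0.0233.

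The leaf side was as sharp. NPF6.2 (Spo05548), named for a transporter of the leaf petiole in Arabidopsis, had 0.200, 0.123 and 0.0975 scaled FPKM in low N root, against 64.9, 149 and 102 in low N leaf (-6.46 ± 0.29, adjusted p = 2.17e-06). NPF2.13 (Spo25744), which in Arabidopsis loads nitrate into the phloem for movement to young leaves, had 0.0773, 0.0561 and 0.124 scaled FPKM in low N root, against 30.2, 56.7 and 43.6 in low N leaf (-5.31 ± 0.24), and NPF3.1 (Spo19480) had 0.0458, 0 and 0.0246 scaled FPKM in low N root, against 20.7, 22.95 and 15.04 in low N leaf (-4.31 ± 0.20). In these 3 genes root was at or near 0 in every library, and no leaf library was. NPF2.11 (Spo20248, -3.18 ± 0.24) and NPF1.2 (Spo25689, -3.11 ± 0.38) were also lower in root. A second gene for NPF6.2 (Spo16897) ran the other way, with 3.98, 3.83 and 4.48 scaled FPKM in low N root, against 0.125, 0.0963 and 0.396 in low N leaf (2.09 ± 0.19, adjusted p = 8.42e-05).

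Ammonium transporter 1 member 2, a plasma membrane importer of ammonium, was carried by 3 genes, all higher in root. Spo24676 had 245, 248 and 185 scaled FPKM in low N root, against 10.6, 8.70 and 2.75 in low N leaf, 30.7-fold higher in root (adjusted p = 5.00e-05). Spo24677 had 49.1, 62.5 and 36.3 scaled FPKM in low N root, against 4.19, 15.9 and 20.3 in low N leaf (2.00 ± 0.51, adjusted p = 0.0156), and its adjusted p was 0.0610 without root library 2 and 0.0545 in a fit of all 4 groups. Spo16971 was scarce, with 2.14, 2.36 and 2.94 scaled FPKM in low N root, against 0.127, 0.147 and 0 in low N leaf (1.67 ± 0.20). Member 1 of ammonium transporter family 3 (Spo20483) had 6.72, 2.69 and 4.06 scaled FPKM in low N root, against 3.73, 14.3 and 11.3 in low N leaf, overlapped and was not called (adjusted p = 0.176), although its adjusted p was 0.0131 without leaf library 1. Also not called were NPF4.6 (Spo25782), NPF5.8 (Spo07601), NPF8.1 (Spo26805) and both further genes for NPF1.2 (Spo25690, Spo01109), with differences from -0.75 to 0.36. With FPKM as deposited NPF4.6 (0.89, adjusted p = 0.0110), NPF5.8 (0.77, adjusted p = 0.0146) and the NPF1.2 gene Spo25690 (0.78, adjusted p = 0.0357) were called higher in root. The NPF1.2 gene Spo01109 was called lower in root without root library 1 (-1.27, adjusted p = 0.0146). NPF8.1 was at -0.53 ± 0.27 with scaled values, was called lower in root without leaf library 3 (adjusted p = 0.0442) and was at 0.03 with FPKM as deposited, so its direction depended on the scaling.

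**Figure D3:**
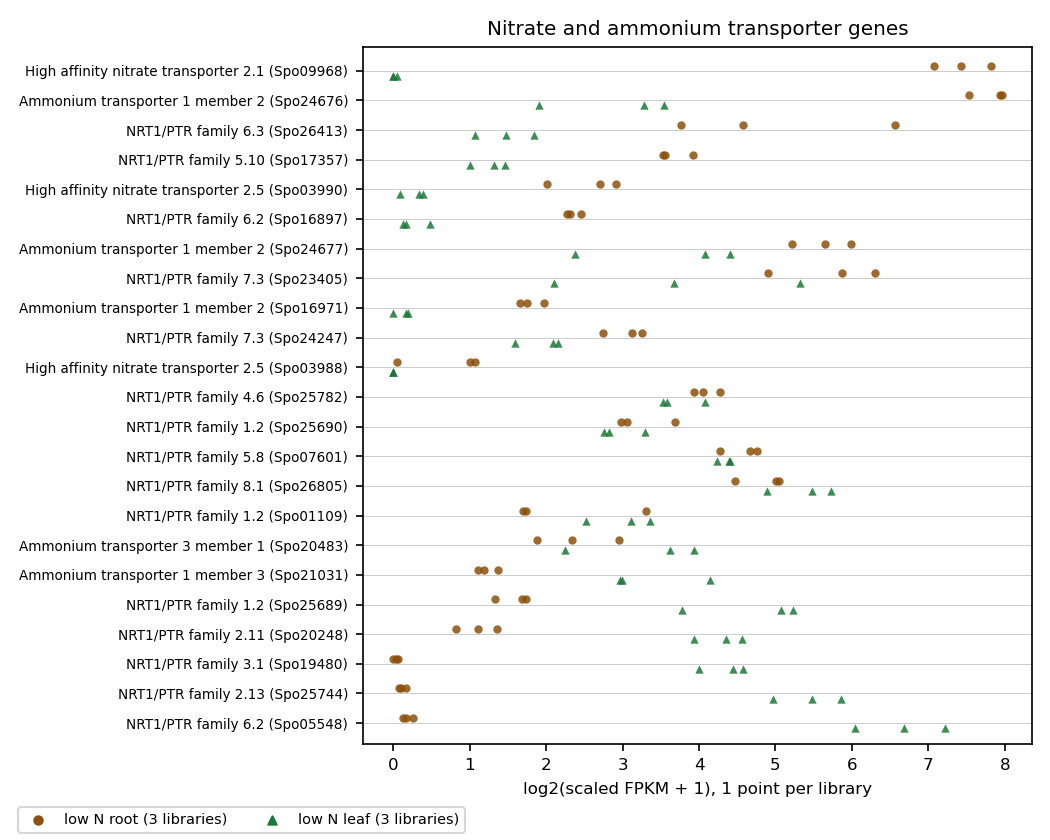
Level of the 23 nitrate and ammonium transporter genes in each library, as log2(scaled FPKM + 1), with brown circles for the 3 low N root libraries and green triangles for the 3 low N leaf libraries. Genes are ordered by their difference, from high-affinity nitrate transporter 2.1, near 0 in leaf, to NPF6.2 (Spo05548), near 0 in root.

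Of 26 tested genes of amino acid metabolism and transport, 12 were higher in root (46.2%, near the 38.9% of all tested genes of the N response tables), 3 were lower and 11 were not called, with a median of 0.81. With FPKM as deposited 19 were higher and 3 lower. A glutamine synthetase named for the nodule isozyme (Spo01186), a cytosolic enzyme that fixes ammonium into glutamine, had 407, 368 and 311 scaled FPKM in low N root, against 41.02, 45.6 and 39.5 in low N leaf, 8.61-fold higher in root (adjusted p = 7.85e-06). Branched-chain aminotransferase 2 (Spo14673) had 5.69, 3.46 and 3.56 scaled FPKM in low N root, against 0, 0 and 0 in low N leaf, at least 21.2-fold higher in root. An asparagine synthetase (Spo08792), which makes the N-rich transport amino acid asparagine, had 4.95, 2.18 and 3.13 scaled FPKM in low N root, against 105, 37.5 and 15.1 in low N leaf, 15.3-fold lower in root, with leaf library 1 high among the leaves. The vacuolar amino acid transporter YPQ3 (Spo21518) was lower in root as well (-3.05 ± 0.27), and a glutamine amidotransferase named GAT1_2.1 (Spo00216) was higher (1.69 ± 0.34).

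The 3 genes around the glyoxylate cycle, which turns acetate units from fat into organic acids, took different sides. Malate synthase (Spo16696) had 143, 106 and 269 scaled FPKM in low N root, against 36.4, 27.7 and 14.7 in low N leaf, 6.56-fold higher in root. Isocitrate lyase (Spo13898), which acts just before it, had 3.64, 1.92 and 4.51 scaled FPKM in low N root, against 38.4, 42.1 and 6.31 in low N leaf (-2.46 ± 0.67, adjusted p = 0.0193), and its call was lost (adjusted p = 0.0511 to 0.0760) without leaf library 1, leaf library 2, root library 1 or root library 2. Phosphoenolpyruvate carboxykinase (Spo20411), which feeds organic acids into sugar synthesis, had 48.8, 26.4 and 18.003 scaled FPKM in low N root, against 0.508, 0.110 and 0.109 in low N leaf (4.59 ± 0.36, adjusted p = 3.17e-05). Thus malate synthase and the carboxykinase were higher in root without overlap, while isocitrate lyase was lower.

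Of 16 genes of sugar transport and starch breakdown, 5 were higher in root (31.25%) and 6 lower (37.5%). All tested genes of the N response tables had shares of 38.9% and 25.5%. The sugar exporter SWEET7 (Spo11590) had 253, 141 and 136 scaled FPKM in low N root, against 2.85, 9.30 and 5.03 in low N leaf, 30.9-fold higher in root, and chloroplastic beta-amylase 3 (Spo09720), which degrades starch, had 11.02, 9.996 and 19.7 scaled FPKM in low N root, against 213, 127 and 76.4 in low N leaf, 10.2-fold lower in root. The median of this list was -0.07. With FPKM as deposited 6 were higher and 2 lower, with a median of 0.45, so neither direction prevailed under both scalings.

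Carriers of mineral ions and water were mostly higher in root, 23 of 40 against 9 lower, with a median of 0.88, and with FPKM as deposited 27 and 4. The metal transporter Nramp5 (Spo17462), the manganese and cadmium importer of rice roots, had 71.8, 78.004 and 141 scaled FPKM in low N root, against 0, 0 and 0 in low N leaf, at least 751-fold higher in root (adjusted p = 1.43e-06). Largest on the leaf side was a sodium transporter HKT1 gene (Spo18318), of a family that withdraws sodium from the xylem, with 0.171, 0.0948 and 0.316 scaled FPKM in low N root, against 48.5, 30.7 and 16.2 in low N leaf (-4.66 ± 0.37, adjusted p = 3.49e-05).

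Class III peroxidases are secreted enzymes that act on wall polymers such as lignin. Of 24 class III peroxidases, 18 were higher in root and 3 lower, with a median of 2.52, and the list summed to 860, 1186 and 1440 scaled FPKM in low N root, from lowest to highest, against 134, 163 and 246 in low N leaf. Cationic peroxidase 1 (Spo00279) had 279, 444 and 283 scaled FPKM in low N root, against 0, 0.282 and 0.379 in low N leaf (8.08 ± 0.24, adjusted p = 4.02e-07), and peroxidase 72 (Spo05332), tied to lignin formation in Arabidopsis, had 94.2, 147 and 194 scaled FPKM in low N root, against 0, 0 and 0.0495 in low N leaf (7.11 ± 0.26). Peroxidase 44 (Spo16541) had no fragment in leaf and was at least 34.4-fold higher in root. Of the 3 called lower in root, peroxidase 19 (Spo08562) differed most (-1.14 ± 0.21).

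Of 31 genes of lignin, suberin and the Casparian strip, the barriers of the root endodermis and periderm, 17 were higher in root and 4 lower, with a median of 1.08. Omega-hydroxypalmitate O-feruloyl transferase (Spo08965), which adds the phenolic part of suberin, had 112, 191 and 165 scaled FPKM in low N root, against 0, 0.0350 and 0.0786 in low N leaf (7.21 ± 0.22, adjusted p = 4.85e-07). A 3-ketoacyl-CoA synthase (3-ketoacyl-CoA synthase 4, Spo16719), of fatty acid elongation, had 0.839, 0.585 and 0.576 scaled FPKM in low N root, against 68.3, 82.8 and 59.7 in low N leaf, 105-fold lower in root. For secondary cell wall genes the count was 17 of 33 higher and 1 lower, with a median of 0.77. Fasciclin-like arabinogalactan protein 9 (Spo04884) had 47.7, 124 and 70.7 scaled FPKM in low N root, against 0.937, 0.216 and 0.242 in low N leaf (5.73 ± 0.37), and the 1 gene lower in root was trichome birefringence-like 19 (Spo24056), 3.36-fold lower.

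Of wall-loosening and pectin enzymes, 15 of 36 were higher in root (41.7%) and 14 lower (38.9%). All tested genes of the N response tables had shares of 38.9% and 25.5%. Expansin-A1 (Spo18643) had 44.99, 147 and 34.2 scaled FPKM in low N root, against 0.446, 1.10 and 1.32 in low N leaf (5.02 ± 0.52), and a xyloglucan endotransglucosylase/hydrolase (Spo09254), which cuts and rejoins wall xyloglucan, had 0, 0 and 0 scaled FPKM in low N root, against 139, 189 and 233 in low N leaf, at least 1934-fold lower in root. Each tissue thus had enzymes of this kind that the other lacked or nearly lacked.

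Germin-like proteins and the related auxin-binding proteins ABP19 and ABP20, secreted proteins of the cell wall, were mostly higher in root. Of 24 tested, 22 were higher (91.7%) and 1 was lower, with a median of 4.41. An ABP20 gene (Spo27024) had 326, 296 and 123 scaled FPKM in low N root, against 0.343, 0.132 and 0 in low N leaf (7.64 ± 0.37, adjusted p = 2.97e-06), and an ABP19a gene (Spo10206) had 214, 97.6 and 122 scaled FPKM in low N root, against 0, 0 and 0 in low N leaf, at least 423-fold higher in root. The 1 gene lower in root was also named ABP19a (Spo25135), with 0.801, 2.12 and 1.25 scaled FPKM in low N root, against 566, 1219 and 1460.1 in low N leaf (-8.75 ± 0.38, adjusted p = 1.84e-06). From lowest to highest, the list summed to 1191, 1874 and 2663 scaled FPKM in low N root, against 784, 1381 and 1530 in low N leaf, where that 1 gene made up most of the sum.

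The flavonoid pathway, which makes flavonols and other flavonoids from phenylalanine, was higher in root in 11 of 18 genes and lower in 2, with a median of 2.07. Naringenin 3-dioxygenase (Spo26380), the flavanone hydroxylase of the pathway, had 186, 146 and 108 scaled FPKM in low N root, against 0.141, 0.108 and 0.202 in low N leaf (6.97 ± 0.22, adjusted p = 5.28e-07). Chalcone synthase, the entry step, was carried by Spo27151, with 84.8, 88.4 and 46.1 scaled FPKM in low N root, against 0, 0.455 and 0.128 in low N leaf (5.92 ± 0.29), and by Spo26611, with 0.341, 0.0472 and 0.471 scaled FPKM in low N root, against 35.8, 23.9 and 52.4 in low N leaf (-4.84 ± 0.30). These chalcone synthase genes were thus on opposite sides, each nearly silent in the tissue where the other was expressed.

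Of 48 defence proteins, 16 were higher in root (33.3%) and 18 lower (37.5%), and with FPKM as deposited 19 and 16. All tested genes of the N response tables had shares of 38.9% and 25.5%. Defensin-like protein AX1 (Spo23290), a small antifungal protein, had 872, 488 and 478 scaled FPKM in low N root, against 0, 0 and 0.376 in low N leaf (9.05 ± 0.28, adjusted p = 4.68e-07), the largest difference among named genes higher in root. A pathogenesis-related protein of the PR-1 type (Spo19866), a secreted protein used as a marker of salicylic acid signalling, had 0, 0 and 0 scaled FPKM in low N root, against 1741, 3184 and 1385 in low N leaf, at least 7595-fold lower in root (adjusted p = 3.38e-07). Abundant proteins of uncertain role in these tissues completed the extremes. A jasmonate-induced protein homolog (Spo10692) had 649.8, 938 and 609 scaled FPKM in low N root, against 1.39, 0 and 0.104 in low N leaf (9.02 ± 0.36), the trypsin inhibitor BvTI (Spo28028) had 239, 351 and 388 scaled FPKM in low N root, against 1.30, 0.545 and 1.63 in low N leaf (7.25 ± 0.27), and MLP-like protein 28 (Spo25736) had 117, 191 and 193 scaled FPKM in low N root, against 0.157, 0.361 and 0.203 in low N leaf (7.05 ± 0.23). A protein named for the 21 kDa seed protein (Spo28094) had 0.892, 1.11 and 1.09 scaled FPKM in low N root, against 8204, 2646 and 2235 in low N leaf (-10.81 ± 0.46), and a mannose/glucose-specific lectin (Spo00490) had 0, 0 and 0.200 scaled FPKM in low N root, against 656, 1376 and 1179 in low N leaf (-9.91 ± 0.28). In the first 3 every root library lay above every leaf library, and in the last 2 the reverse held.

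Hormone genes were higher in root in 18 of 40 cases (45.0%) and lower in 10 (25.0%), with a median of 0.36. These shares are near the 38.9% and 25.5% of all tested genes of the N response tables. A homolog of the ethylene-forming ACC oxidase (Spo03777) had 124, 105 and 48.9 scaled FPKM in low N root, against 0, 0 and 0 in low N leaf, at least 623-fold higher in root, and a gibberellin-degrading gibberellin 2-beta-dioxygenase 8 (Spo03697) had 8.04, 35.9 and 49.6 scaled FPKM in low N root, against 0, 0 and 0.322 in low N leaf (4.55 ± 0.60). The auxin-responsive SAUR21 (Spo14075) had 0, 0 and 1.07 scaled FPKM in low N root, against 41.6, 76.3 and 60.01 in low N leaf (-5.52 ± 0.35). Gibberellin-regulated protein 10 (Spo07806) had 11.3, 31.6 and 20.2 scaled FPKM in low N root, against 256, 127 and 19.7 in low N leaf, not called in the fit of these 6 libraries (adjusted p = 0.0874). It was called in the fit of all 4 groups (adjusted p = 0.0463) and without leaf library 3 (adjusted p = 0.00224), which alone among leaves fell within the root range.

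Among transcription factors 31 of 66 were higher in root (47.0%) and 14 lower (21.2%), with a median of 0.79, and with FPKM as deposited 38 and 10. Over all tested genes of the N response tables the shares were 38.9% and 25.5%. Ethylene-responsive factor 5 (Spo11939) had 22.4, 20.7 and 11.1 scaled FPKM in low N root, against 0, 0 and 0 in low N leaf, at least 57.98-fold higher in root, and CONSTANS-LIKE 16 (Spo12372), a zinc finger protein, had 1.26, 1.07 and 1.0002 scaled FPKM in low N root, against 196, 331 and 314 in low N leaf, 252-fold lower in root. Receptor kinases and receptor-like proteins counted 35 of 84 higher (41.7%) and 21 lower (25.0%), with a median of 0.47, and with FPKM as deposited 48 and 16. These shares are near the 38.9% and 25.5% of all tested genes of the N response tables. The cysteine-rich receptor-like kinase 25 (Spo28390) had 39.2, 53.8 and 30.2 scaled FPKM in low N root, against 0, 0 and 0 in low N leaf, at least 156-fold higher in root, whereas a leucine-rich repeat receptor-like kinase (Spo09103) had 0.481, 0.216 and 0.0737 scaled FPKM in low N root, against 91.4, 51.6 and 21.5 in low N leaf (-5.26 ± 0.47).

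Of 22 heat shock genes 5 were higher in root (22.7%) and 3 lower (13.6%). Their median of -0.02 turned to 0.45 with FPKM as deposited. The factor HSF24 (Spo22916) was 6.15-fold higher in root, and the 17.9 kDa class I heat shock protein (Spo28200), a small chaperone, was 12.3-fold lower. Of 15 cell division genes 5 were higher (33.3%) and 0 lower, and with FPKM as deposited 10 and 0. The kinesin KIN-14P (Spo10400) had 5.77, 5.36 and 4.60 scaled FPKM in low N root, against 0.176, 0.0225 and 0.287 in low N leaf. With scaled values the shares of both lists were below the 38.9% and 25.5% of all tested genes of the N response tables. The plot of calls by gene list sets these shares side by side.

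**Figure D4:**
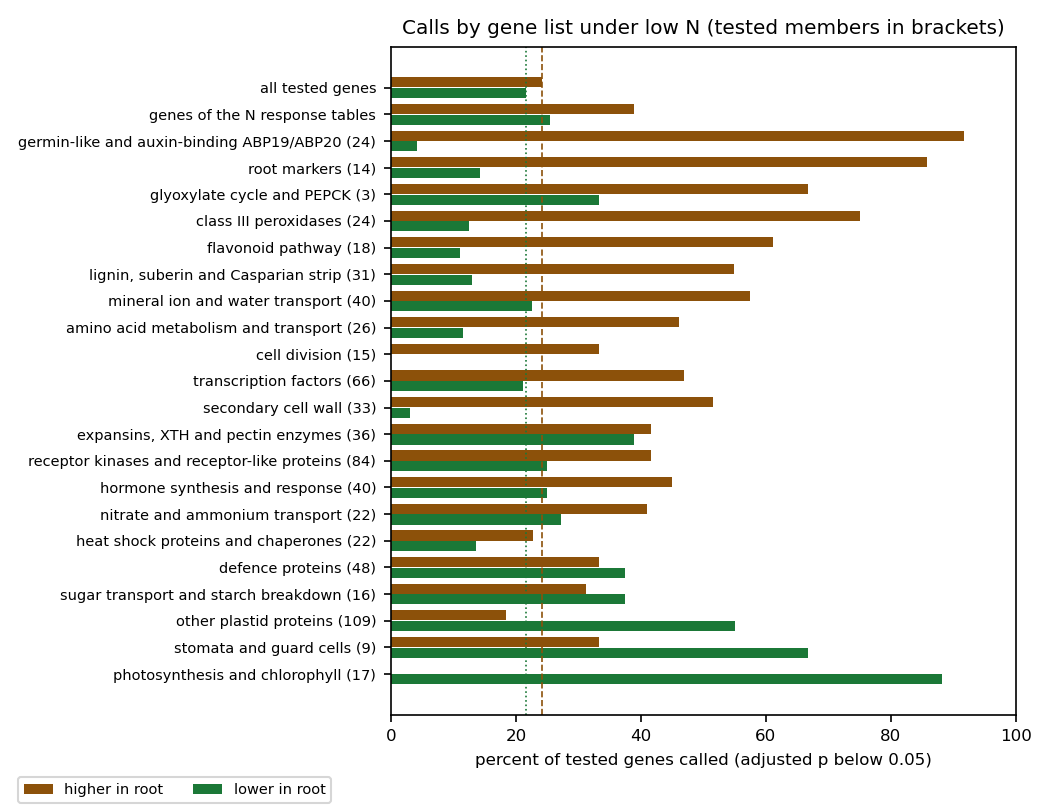
Share of tested genes called higher in root (brown bars) and lower in root (green bars) under low N, in percent, for all tested genes, for the genes of the study's N response tables and for each gene list, with the number of tested members in brackets. Dashed and dotted lines mark 24.1% and 21.6%, the shares over all tested genes. Photosynthesis genes have a green bar alone, and germin-like genes the longest brown bar.

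Some genes were detected in 1 tissue and not in the other. Here this means at least 10 fragments in every library of a tissue and fewer than 3 in every library of the other, with depth close between the tissues. Of 25495 genes, 772 (3.03%) were root-only by this rule and 265 (1.04%) leaf-only. With at least 20 fragments the counts were 664 and 221, and with at least 5 they were 910 and 344. These thresholds were added after the data were seen. The root-only genes held 133 of the 1754 named genes. Among them were 11 of 27 germin-like or ABP genes, 11 of 95 receptor kinases, 10 of 16 root markers and 9 of 26 peroxidases. There were also 9 of 48 mineral ion or water carriers, 8 of 34 secondary wall genes and 7 of 73 transcription factors. Of these lists, receptor kinases and transcription factors lay nearest the share over all named genes. The leaf-only genes held 32 of the 1754 named genes, spread as 3 of 44 expansins or related enzymes and at most 2 of any other list. A gene may stand on more than 1 list.

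The same name did not always mean the same tissue. Among called genes, 103 names were carried by at least 2 genes, and 32 of these names had genes called in both directions (79 of 244 genes). This count was made after the data were seen, and a name stands for the best protein match, not for a family tree. ABP19a had 6 genes higher in root and 1 lower, spanning 7.10 to -8.75. Defensin-like protein AX1 had 2 higher and 1 lower (9.05 to -4.10), and the sodium transporter HKT1 had 1 of each (4.61 and -4.66). Chalcone synthase (5.92 and -4.84) and NPF6.2 (2.09 and -6.46) were divided likewise. Omega-hydroxypalmitate O-feruloyl transferase had 1 gene higher and 2 lower (7.21 to -2.28).

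Most of the tissue difference was shared with plants at 200 ppm N, measured in separate libraries. Root against leaf under high N gave 10044 calls among 18247 genes (55.0%), 28.8% higher in root and 26.2% lower. Called at both N levels were 7325 genes, 7319 in the same direction and 6 in opposite directions. The shared calls of 1 direction made up 87.0% of the low N calls and 72.9% of the high N calls. Across the 17943 genes tested at both levels the differences correlated at r = 0.968 and rho = 0.927, given as a description because genes are not independent replicates.

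Whether the tissue difference itself depended on N was tested as an interaction over all 12 libraries. Of 18411 genes, 24 (0.130%) were called, 23 of them with a lower root minus leaf difference under low N and 1 with a higher one, and 1317 had an unadjusted p below 0.05. All 24 stood in the study's N response tables. The count was unstable. A pseudocount of 0.1 in place of 1 gave 3 calls, 1 of them among the 24. Leaving out each library in turn gave 0 to 43 calls, with 0 in 4 of 12 cases (without high N leaf library 1, high N leaf library 2, high N root library 1 or low N leaf library 2). Of the 24 genes 21 had a name, 17 of them higher in root at both N levels with a smaller difference under low N, 3 lower in root at both levels with a larger difference under low N, and 1 with opposite signs. Among the 17, Spo03782 overlapped between the tissues under low N and was higher in root there by its mean alone. It and Spo14643 were below the filter of the low N fit. By list, 5 of the 24 belonged to the flavonoid pathway and 4 were ABP genes, and all were named after their values were seen.

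The chalcone isomerase gene Spo18570, of the second step of the flavonoid pathway, had the largest interaction of these named genes. It had 78.9, 107 and 50.99 scaled FPKM in low N root, against 10.96, 17.2 and 25.7 in low N leaf (2.09 ± 0.36), against a root minus leaf difference of 5.92 ± 0.20 under high N, an interaction of -3.83 ± 0.45 (adjusted p = 0.0220). The naringenin 3-dioxygenase gene Spo26380 differed by 6.97 ± 0.22 under low N and by 9.07 ± 0.17 under high N (interaction -2.12 ± 0.28, adjusted p = 0.0233). An ABP20 gene, Spo10209, had 18.05, 3.86 and 8.41 scaled FPKM in low N root, against 0, 0 and 0 in low N leaf (3.26 ± 0.45), against 6.95 ± 0.25 under high N (interaction -3.72 ± 0.57, adjusted p = 0.0379). All 3 were higher in root at both N levels, by a smaller margin under low N. In the other direction, a putative flavonoid 3-O-glucosyltransferase (Spo16205) had 0.553, 0.357 and 0.0330 scaled FPKM in low N root, against 43.4, 36.7 and 27.5 in low N leaf (-4.81 ± 0.24), against -2.60 ± 0.18 under high N (interaction -2.19 ± 0.31, adjusted p = 0.0285), a larger difference under low N.

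Over the whole lists, the germin-like and ABP genes had a median difference of 4.41 at low N (24 tested) and 6.72 at high N (26 tested). The flavonoid pathway had one of 2.07 (18 tested) and 3.96 (17 tested). All list members were chosen for an N response in these libraries, so shifts of these medians are no independent evidence that the tissue difference depended on N. For photosynthesis genes the medians were -6.56 and -5.93. The wall-loosening list was divided at both N levels, with 15 of 36 tested genes higher in root and 14 lower at low N. At high N 14 of 35 tested were higher and 18 lower. Its median was 0.62 at low N and -0.71 at high N. The list held 2 of the 6 genes that were called in opposite directions, both named xyloglucan endotransglucosylase/hydrolase 2. Of these, Spo12226 had 49.4, 42.9 and 73.3 scaled FPKM in low N root, against 24.5, 21.1 and 31.3 in low N leaf (1.06 ± 0.25, adjusted p = 0.00996), against -0.71 ± 0.24 under high N. Spo12227 differed by 1.29 ± 0.24 and -0.71 ± 0.23. Neither passed the interaction test (adjusted p = 0.134 and 0.0591), and both were named after their values were seen. High-affinity nitrate transporter 2.1 (Spo09968) differed by 7.42 ± 0.21 under low N and 2.55 ± 1.52 under high N, also without passing it (adjusted p = 0.518).

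**Figure D5:**
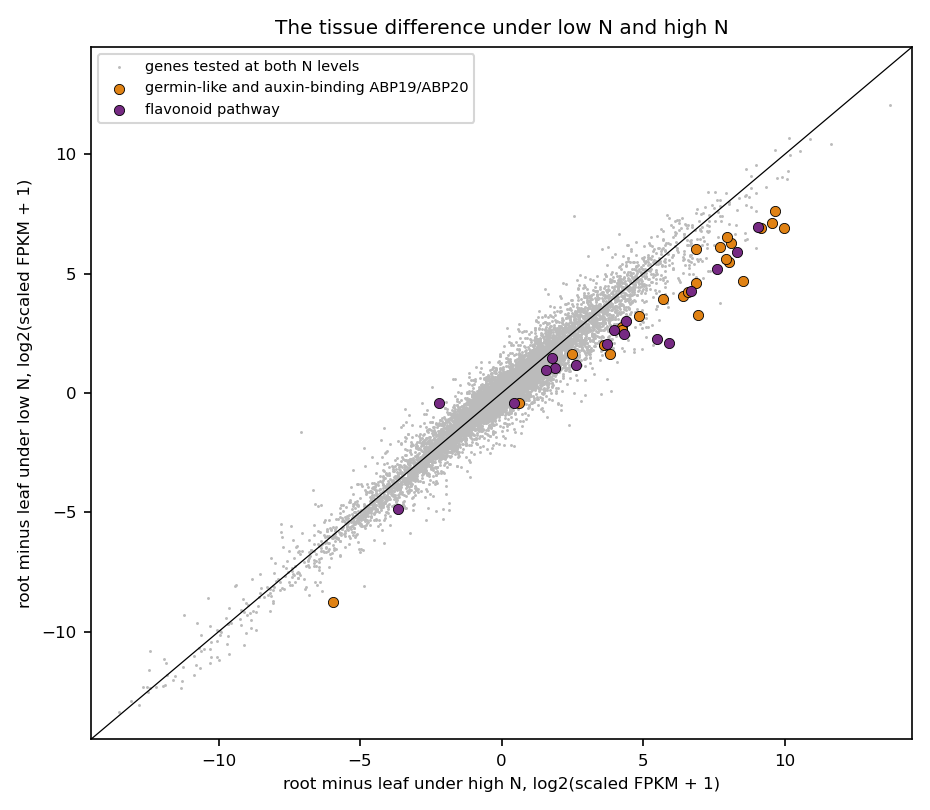
Root minus leaf difference under low N (vertical axis) against that under high N (horizontal axis), both on log2(scaled FPKM + 1), for the 17943 genes tested at both N levels, with the line of equality. Germin-like and ABP genes (orange) and flavonoid genes (purple) higher in root lie mostly below the line, meaning a smaller difference under low N. The coloured genes were chosen by the study for an N response in these libraries.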

How the data were processed

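RNA of root and leaf was sequenced in 12 libraries, and the authors deposited FPKM for 25495 genes. Per the study's methods, read pairs were aligned to the SpinachBase genome with TopHat and Bowtie, fragments were counted with HTSeq, and the authors tested N levels with DESeq. The submitters' processing notes name fastp, HISAT2 2.1.0, featureCounts and DESeq2 instead. The genome build is not given in the sources used here. The table held 0 other per-sample columns.

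FPKM of the 6 low N libraries was divided by median-of-ratios size factors, and log2(value + 1) was fitted with limma 3.58.1 (R 4.3.3, trended variance, 2-sided, Benjamini-Hochberg adjustment over the 18408 genes whose FPKM averaged 1 or more). The fit was also run on simulated data with 200 genes changed 4-fold, as many up as down. So few and balanced changes cannot show how the scaling acts on tissues this unlike. FPKM values were whole multiples of what 1 fragment is worth, so fragments were worked back for all 23015 genes with a value above 0. The 4 groups in one fit gave the interaction. Groups came from the library names. Whether root and leaf libraries of 1 number came from the same plant is not given in the sources used here, so p-values measure the spread between these libraries.

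Named genes are the 10 largest differences in each direction among called, non-overlapping genes with a name, the 2 largest in each direction over all genes, the extreme called members of each of 21 lists, all members of the photosynthesis, stomata, root marker and N transport lists, and genes the study's text names, those without a protein name excepted. Not all genes picked by these rules are described in the text. Members and lists were chosen with earlier results of these data known. Alternatives changed the scaling, the pseudocount (0.1), the filter (none, or a mean of 5), the variance trend, the samples in the fit, the test (voom on fragments) and the replicate block, and left out each library in turn. Of 25495 identifiers, 0 matched the RefSeq table, so no gene sequence is shown, and primers are the study's.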

Additional observations from a re-analysis of the deposited data

Results flagged for a closer look

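The interaction test of limma over all 12 libraries was passed by 24 genes, 21 of them with a name. It asked whether the root minus leaf difference depended on the N level. Each value is the difference under low N minus that under high N, on log2(scaled FPKM + 1), and levels are scaled over the 12 libraries. Of the 21 genes, 17 were higher in root at both N levels with a smaller difference under low N, 3 were lower in root at both levels with a larger difference under low N, and 1 had opposite signs. The study chose these genes for their N response in the same libraries, and the number passing ranged from 0 to 43 with 1 library left out. With a pseudocount of 0.1 in place of 1, 3 genes passed, 1 of them among the 24, so the list of genes was not stable.

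In the flavonoid pathway the chalcone isomerase Spo18570 had -3.83 ± 0.45 (SE, adjusted p = 0.0220), with 78.1, 106 and 50.5 scaled FPKM in low N root, 10.8, 16.9 and 25.2 in low N leaf, 449, 646 and 513 in high N root and 5.98, 8.38 and 9.20 in high N leaf. The probable chalcone isomerase 3 (Spo26569) had -3.24 ± 0.50. In both genes root was lower under low N without overlap, and leaf was higher. The chalcone synthases Spo25740 (-2.41 ± 0.27) and Spo27151 (-2.44 ± 0.37) and the naringenin 3-dioxygenase Spo26380 (-2.12 ± 0.28) were near 0 in leaf at both N levels, so their values rest on root.

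Among auxin-binding proteins, Spo28140 (ABP19a) had -3.10 ± 0.38 (adjusted p = 0.0233), with 175, 118 and 77.8 scaled FPKM in low N root, 0 in all low N leaf libraries, 1421, 1419 and 924 in high N root and 0.335, 0.350 and 0 in high N leaf. The ABP20 genes Spo25055 (-2.34 ± 0.34), Spo20067 (-2.39 ± 0.37) and Spo10209 (-3.72 ± 0.57) were likewise lower in low N root than in high N root in every library, with leaf at or near 0.

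Also higher in root at both levels with a smaller difference under low N were peroxidase 2 (Spo07360, -3.13 ± 0.42), peroxidase 5 (Spo07361, -2.82 ± 0.43), the RING-H2 finger protein ATL11 (Spo19365, -2.37 ± 0.27), the F-box protein SKIP23 (Spo04843, -2.30 ± 0.33), the cysteine-rich receptor-like kinase 6 (Spo14643, -2.04 ± 0.27), the pathogenesis-related protein STH-21 (Spo12912, -2.03 ± 0.27), ENHANCED PSEUDOMONAS SUSCEPTIBILTY 1 (Spo23268, -1.95 ± 0.29) and an ACC oxidase homolog (Spo03782, -1.91 ± 0.25). Under low N the ACC oxidase homolog overlapped between root (0.792, 0.469 and 0.425 scaled FPKM) and leaf (0.412, 0.472 and 0.471) and differed by 0.10, so it is counted as higher in root there by its mean alone. This homolog and the cysteine-rich receptor-like kinase 6 were below the filter of the low N fit and not tested there. The kinase had 0.748, 0.705 and 0.379 scaled FPKM in low N root, against 0 in all low N leaf libraries.

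The 3 genes lower in root at both levels were the BURP domain-containing protein 3 (Spo18198, -3.12 ± 0.48), a putative flavonoid 3-O-glucosyltransferase (Spo16205, -2.19 ± 0.31) and the 7-deoxyloganetin glucosyltransferase (Spo30042, -1.76 ± 0.24). The BURP gene was below the filter of the high N fit, so its difference of -1.12 under high N was not tested. The cinnamoyl-CoA reductase-like SNL6 (Spo23280, -2.01 ± 0.30) differed by -1.87 under low N and by 0.14 under high N. Adjusted p values of the 21 genes lay between 0.0220 and 0.0386.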

How the results depend on the processing

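The count of 8412 calls ranged over the alternatives from 6333 (mean FPKM of at least 5) to 11293 (FPKM as deposited), and from 6883 to 8449 with 1 library left out, with 0 shared calls of opposite direction in each. The median difference of 0.0505 was 0.554 with FPKM as deposited, 0.0661 with quantile normalization, 0.0587 with a pseudocount of 0.1, 0.0332 without a filter and 0.0409 to 0.0553 with 1 library left out. The 24 interaction calls became 30 with FPKM as deposited, 27 with quantile normalization, 3 with a pseudocount of 0.1 and 0 to 43 with 1 library left out, the high N libraries being added to this check after the data were seen. The cause was not tested.

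Deviations of same-numbered root and leaf libraries correlated at 0.270, 0.0921 and 0.296, and each root library correlated best with its own number. The value 0.0921 lay below the pairing threshold of 0.1, and the main fit had no replicate block. Whether the same number marks the same plant was not settled. With the replicate block 8597 genes were called, 8079 of them shared, and the interaction calls fell from 24 to 1.

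Of 119 named genes tested, 103 kept direction and call under every alternative run. Of 1763 values 1726 kept both, 22 lost the call, 14 gained one and 1 turned direction (NPF8.1, Spo26805, 0.0284 with FPKM as deposited). Depth limits genes near 3 fragments.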
